A study of Homo sapiens with 6 samples.

Results

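The oligoadenylate synthetase (OAS) family was examined in RNA that the J2 antibody, which binds double-stranded RNA, pulled down from OCI-AML2, a cell line grown from human acute myeloid leukaemia. The family was taken by name from the deposited gene table as OAS1, OAS2, OAS3 and OASL, 4 of 60675 gene identifiers. Short hairpin RNAs were directed against SUPV3L1 (also called SUV3) in 3 libraries and against PNPT1 in 3 libraries, and the 3 libraries of each group are biological replicates per the series' design text. SUPV3L1 encodes an RNA helicase and PNPT1 the exoribonuclease that acts with it on RNA in the mitochondrial matrix. Cells with a control hairpin and RNA taken before precipitation were not analysed here, so each comparison sets SUPV3L1 knockdown against PNPT1 knockdown, and all 6 libraries share the cell line, the transduction and the antibody. Each library title holds a number of its own whose meaning the labels do not give, so it is not known here whether 1 hairpin or several were used per gene.

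OAS1, OAS2 and OAS3 are enzymes that bind double-stranded RNA and then join ATP into short chains with 2′-5′ bonds, called 2-5A, a messenger of the antiviral response. OASL is a relative that makes no 2-5A and acts through ubiquitin-like domains in antiviral signalling. The genes are induced by interferon through the transcription factor complex ISGF3, which binds interferon-stimulated response elements in their promoters.

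OAS1, OAS3 and OAS2 lie next to each other in this order on the plus strand of chromosome 12, within 105 kb, and OASL lies 8007 kb beyond OAS2 on the minus strand. In GENCODE 29 on GRCh38, the build that the submitters' processing notes name, OAS1 (ENSG00000089127) spans chr12:112906777-112933222, OAS3 (ENSG00000111331) chr12:112938352-112973249, OAS2 (ENSG00000111335) chr12:112978395-113011723 and OASL (ENSG00000135114) chr12:121019111-121039242. All are protein-coding. The RefSeq promoter table used here (GRCh38.p14) holds OAS1 and OAS3, and the 250 bases before the RefSeq start of each are shown because both hold a pair of closely spaced GAAA blocks near the start. Capitals mark matches to a pair of GAAA blocks with any 2 bases between them, the core of an interferon-stimulated response element, or with any 1 base between them, searched on both strands. The OAS1 stretch is chr12:112906712-112906961 and the OAS3 stretch is chr12:112938224-112938473, both on the plus strand. Both lie partly inside the GENCODE 29 spans, which begin before the RefSeq starts (112906962 for OAS1 and 112938474 for OAS3). The matches nearest the RefSeq starts therefore lie after the GENCODE starts. Distances below count from the RefSeq start.
OAS1: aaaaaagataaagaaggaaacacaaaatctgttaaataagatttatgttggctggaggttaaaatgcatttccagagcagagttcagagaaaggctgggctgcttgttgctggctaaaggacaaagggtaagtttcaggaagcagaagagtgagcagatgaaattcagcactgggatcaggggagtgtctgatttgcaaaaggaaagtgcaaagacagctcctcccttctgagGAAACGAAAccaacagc
OAS3: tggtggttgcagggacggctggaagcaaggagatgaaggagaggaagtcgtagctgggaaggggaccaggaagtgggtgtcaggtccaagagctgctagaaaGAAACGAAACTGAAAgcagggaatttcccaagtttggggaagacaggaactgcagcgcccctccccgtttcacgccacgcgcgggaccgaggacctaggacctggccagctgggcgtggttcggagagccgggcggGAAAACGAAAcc
In OAS1 the match, GAAACGAAA, lies 17 to 9 bases before the start. In OAS3 GAAAACGAAA lies 12 to 3 bases before the start, and GAAACTGAAA, 143 to 134 bases before it, overlaps a GAAACGAAA match at 148 to 140. The motif with a gap of 2 bases was found in 3.02% of 35116 promoter stretches of this length and that with a gap of 1 base in 2.69%. A match is a sequence description and does not show that a factor binds there.

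Counts assigned to genes ranged from 9378264 to 11361371 in the SUPV3L1 knockdown libraries and from 5852090 to 10464630 in the PNPT1 knockdown libraries, and the smallest library, PNPT1 knockdown replicate 3, also had the fewest genes with a count (16620, against 20765 to 22393 in the other libraries). RNA of the targeted genes was read first. PNPT1 was at 21.4 to 36.3 CPM (counts scaled to library size, with TMM factors) after SUPV3L1 knockdown and at 7.66 to 18.9 CPM after PNPT1 knockdown. SUPV3L1 was at 9.42 to 12.3 CPM after SUPV3L1 knockdown and at 11.5 to 25.8 CPM after PNPT1 knockdown, where the ranges overlap. By edgeR's quasi-likelihood test neither of these differences passed (Benjamini-Hochberg adjusted p = 0.898 each). Of the blood-cell and myeloid genes, PTPRC, the leukocyte antigen CD45, was at 282 to 537 CPM after SUPV3L1 knockdown and 282 to 607 CPM after PNPT1 knockdown, and SPI1, the myeloid transcription factor PU.1, was at 75.5 to 82.4 and 51.9 to 66.9 CPM in the same order of groups. The progenitor marker CD34 had no counts, and of the lymphoid genes CD2 and MS4A1 had none.

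RNA of the OAS family was scarce in these libraries, and most of it came from SUPV3L1 knockdown replicates 1 and 3. The 4 genes together had 669, 118 and 572 counts in SUPV3L1 knockdown replicates 1, 2 and 3, against 71, 130 and 34 counts in PNPT1 knockdown replicates 1, 2 and 3. Scaled for library size, their sum was 55.0, 11.1 and 61.9 CPM after SUPV3L1 knockdown and 7.07, 11.4 and 8.70 CPM after PNPT1 knockdown. SUPV3L1 knockdown replicate 2 lay within the range of the PNPT1 knockdown libraries, so the groups overlap in the summed level. The mean was 42.7 ± 27.6 CPM after SUPV3L1 knockdown and 9.04 ± 2.16 CPM after PNPT1 knockdown (SD, n = 3 each), a ratio of 4.72. In bulk RNA of this kind, fewer cells that express a gene and less of its RNA per cell cannot be told apart, and since RNA from before the pull-down was not analysed, expression and recovery by the antibody cannot be told apart.

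OAS2, whose protein works as a dimer of the middle size class, was the most abundant member. It had 346, 74 and 460 counts in SUPV3L1 knockdown replicates 1, 2 and 3, which is 28.4, 6.98 and 49.8 CPM. In PNPT1 knockdown replicates 1, 2 and 3 it had 64, 88 and 31 counts, or 6.37, 7.68 and 7.93 CPM. The PNPT1 knockdown libraries lay close together, SUPV3L1 knockdown replicates 1 and 3 lay above them, and SUPV3L1 knockdown replicate 2 lay among them. On the log2 scale OAS2 differed by 1.96 ± 0.59 (SE, SUPV3L1 minus PNPT1 knockdown), which did not pass edgeR's quasi-likelihood test over 13275 genes (with Benjamini-Hochberg adjusted p = 0.898, unadjusted p = 0.00757). Without SUPV3L1 knockdown replicate 3 the log2 fold change was 1.28, and without SUPV3L1 knockdown replicate 2 it was 2.41.

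OAS3, the largest of the enzymes and the one with the strongest binding to long double-stranded RNA, had 210, 33 and 41 counts in SUPV3L1 knockdown replicates 1, 2 and 3, or 17.3, 3.11 and 4.44 CPM. In PNPT1 knockdown replicates 1, 2 and 3 it had 3, 26 and 3 counts, or 0.299, 2.27 and 0.768 CPM. The groups did not overlap, although SUPV3L1 knockdown replicate 2 and PNPT1 knockdown replicate 2 were near each other. Its log2 fold change was 2.82 ± 0.87 (SE) and did not pass edgeR's test (Benjamini-Hochberg adjusted p = 0.898, unadjusted p = 0.00843). SUPV3L1 knockdown replicate 1 held most of the counts, and without it the log2 fold change was 1.70. Leaving out PNPT1 knockdown replicate 2 gave 4.09. The 3 SUPV3L1 knockdown libraries were enough to carry OAS3 past the expression filter, and PNPT1 knockdown replicate 2 lay above the minimum too.

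OASL, the member without 2-5A synthesis, had 66, 1 and 36 counts in SUPV3L1 knockdown replicates 1, 2 and 3, or 5.43, 0.0943 and 3.90 CPM. PNPT1 knockdown replicates 1, 2 and 3 had 3, 12 and 0 counts, or 0.299, 1.05 and 0 CPM, where 0 counts allow up to 0.768 CPM (3 counts in that library). The groups overlap, because SUPV3L1 knockdown replicate 2 lay below PNPT1 knockdown replicates 1 and 2. The log2 fold change was 2.56 ± 1.17 (SE) and did not pass edgeR's test (Benjamini-Hochberg adjusted p = 0.898, unadjusted p = 0.0522). With 1 library left out its lowest value was 1.92 (SUPV3L1 knockdown replicate 1 removed) and its highest 3.89 (PNPT1 knockdown replicate 2 removed). PNPT1 knockdown replicate 2 was also the library that, with SUPV3L1 knockdown replicates 1 and 3, carried OASL past the expression filter.

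OAS1, the smallest of the enzymes, was the only member that failed the expression filter. It had 47, 10 and 35 counts in SUPV3L1 knockdown replicates 1, 2 and 3, or 3.86, 0.943 and 3.79 CPM. In PNPT1 knockdown replicates 1, 2 and 3 it had 1, 4 and 0 counts, or 0.0995, 0.349 and 0 CPM, and again 0 counts allow up to 0.768 CPM. Each SUPV3L1 knockdown library held more OAS1 than each PNPT1 knockdown library. Non-overlap on this side held for 4.62% of the genes tested, which do not include OAS1. SUPV3L1 knockdown replicate 2 was again the lowest of its group, and its 0.943 CPM is near the 0.768 CPM that 0 counts allow. Summed over each group, 92 counts after SUPV3L1 knockdown stood against 5 after PNPT1 knockdown. Per effective library size this is a ratio of 14.6, with an exact binomial 95% interval of 6.04 to 46.1 that covers counting error and not the spread between libraries. In the fit with no expression filter its log2 fold change was 3.88 ± 0.95 (SE).

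**Figure D1:**
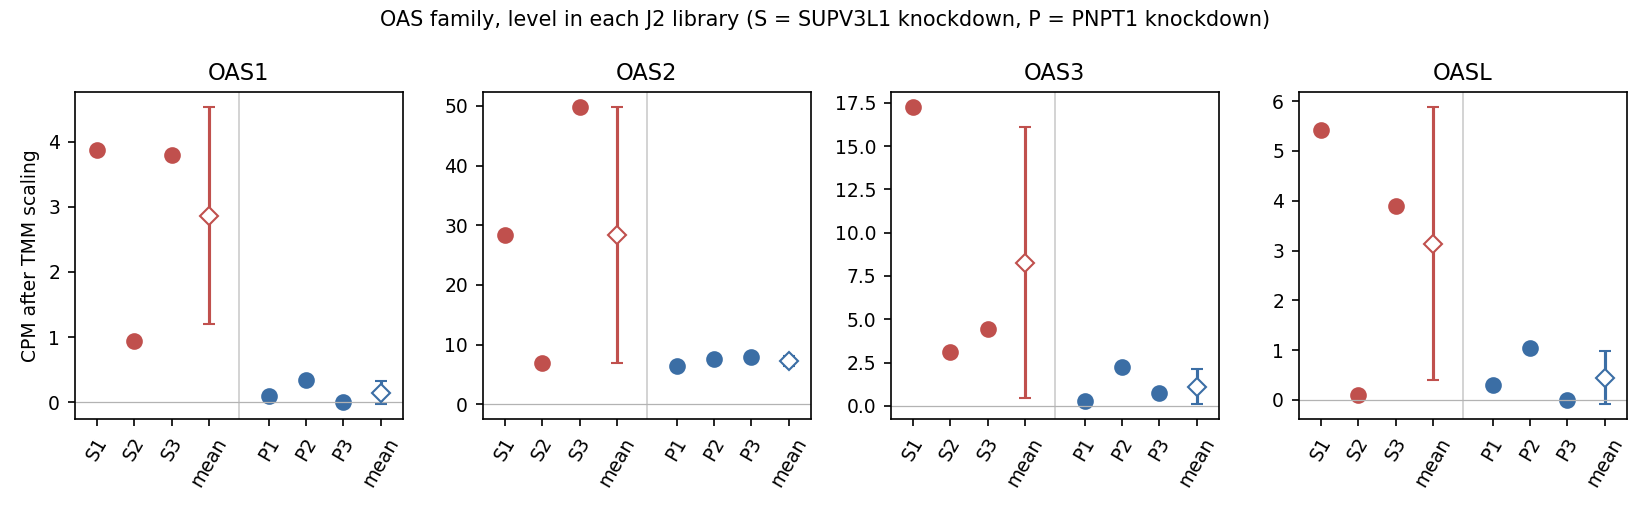
CPM after TMM scaling (y axis, linear, each panel with its own scale) of OAS1, OAS2, OAS3 and OASL in each library (points, S for SUPV3L1 knockdown and P for PNPT1 knockdown), with the mean ± SD of each group (open diamonds, n = 3). For each of the 4 OAS genes S1 and S3 are the 2 highest points, and OAS2 in S2 (6.98 CPM) sits among the PNPT1 knockdown points.

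After Benjamini-Hochberg adjustment edgeR's quasi-likelihood test called 0 of the 3 members tested and 0 of all 13275 genes (0%), in either direction. OAS2 and OAS3 had an unadjusted p under 0.05 with the higher level after SUPV3L1 knockdown, as had 1.70% of the genes tested (2.39% had such a p with the lower level there, and 4.09%, or 543 genes, in all). OAS3 was the 1 tested member whose groups did not overlap, with SUPV3L1 knockdown above, which held for 4.62% of the genes tested. DESeq2 called 18 genes (0.136%; 0.0979% higher and 0.0377% lower after SUPV3L1 knockdown), none of them OAS2 (Benjamini-Hochberg adjusted p = 0.328), OAS3 (0.188) or OASL (0.766). With no expression filter, edgeR tested 28015 genes and called 187 (0.667%). Of these, 80 were lower (0.286%) and 107 higher (0.382%) after SUPV3L1 knockdown, the higher ones including OAS1 (edgeR, Benjamini-Hochberg adjusted p = 0.00958), OAS2 (0.00229) and OAS3 (0.00380) but not OASL (0.153). On the same counts the SE of OAS2 was 0.44 there, against 0.59 with the filter (edgeR, unadjusted p = 8.00e-06 and 0.00757). CD14, at 67.6, 0.754 and 1.73 CPM in SUPV3L1 knockdown replicates 1, 2 and 3, had an unadjusted p of 6.70e-20 there (edgeR). The fit with no expression filter may thus understate the spread between replicates. In that fit, leaving out SUPV3L1 knockdown replicate 1 ended the call of OAS1 (edgeR, Benjamini-Hochberg adjusted p = 0.324), as did leaving out SUPV3L1 knockdown replicate 3 (0.102) or PNPT1 knockdown replicate 1 (0.128). The call of OAS2 was lost there without SUPV3L1 knockdown replicate 1 (0.109) or 3 (0.766), and that of OAS3 without SUPV3L1 knockdown replicate 1 (0.941) or PNPT1 knockdown replicate 1 (0.132), by the same adjusted p of edgeR. OASL was called there without SUPV3L1 knockdown replicate 2 (0.0468) or PNPT1 knockdown replicate 2 (0.0205). With 1 choice changed at a time, the Benjamini-Hochberg adjusted p ran from 0.00484 to 0.867 for OAS1 (fitted with no expression filter throughout), from 0.00229 to 0.999 for OAS2, from 0.00380 to 0.999 for OAS3 and from 0.153 to 0.999 for OASL.

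**Figure D2:**
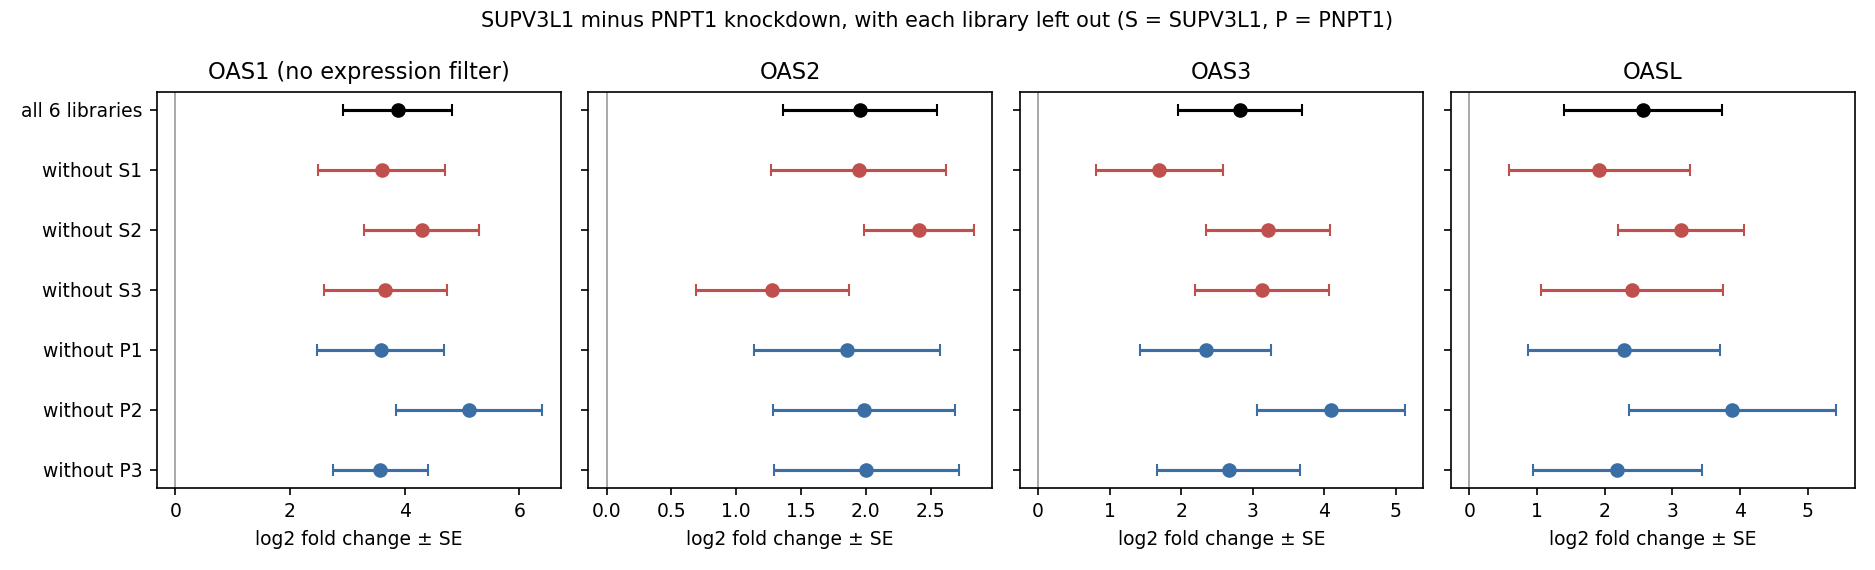
Log2 fold change, SUPV3L1 minus PNPT1 knockdown, with its SE (x axis) for each OAS gene with all 6 libraries (black) and with each library left out in turn (S for SUPV3L1 knockdown, P for PNPT1 knockdown). OAS1 is from the fit with no expression filter. Each estimate is above 0. Those of OAS3 run between 1.70 without S1 and 4.09 without P2, and those of OAS2 between 1.28 without S3 and 2.41 without S2.

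Levels of different genes were compared per length, on the deposited FPKM (fragments scaled to gene length and library size). OAS2 had the highest FPKM of the family in each of the 6 libraries, at 3.56, 0.867 and 5.93 FPKM in SUPV3L1 knockdown replicates 1, 2 and 3 and at 0.927, 0.706 and 0.601 FPKM in PNPT1 knockdown replicates 1, 2 and 3. The other members averaged 0.806 ± 0.762 FPKM (OAS3), 0.623 ± 0.561 FPKM (OASL) and 0.425 ± 0.243 FPKM (OAS1) after SUPV3L1 knockdown (SD, n = 3). After PNPT1 knockdown they averaged 0.107 ± 0.105 FPKM (OAS3) and 0.103 ± 0.113 FPKM (OASL; SD, n = 3). OAS1 was listed at 0 FPKM in PNPT1 knockdown replicates 1 and 3 and was at 0.0258 FPKM in replicate 2. The order of OAS3, OASL and OAS1 changed between libraries, though OAS1 was below OAS3 in each PNPT1 knockdown library. Their differences in mean FPKM were smaller than the SD of OAS3 in each group, but not always smaller than that of OAS1.

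The make-up of the family also differed between libraries of the same group. OAS2 made up 51.7% (exact binomial 95% interval 47.9 to 55.6), 62.7% (53.3 to 71.4) and 80.4% (76.9 to 83.6) of the OAS counts in SUPV3L1 knockdown replicates 1, 2 and 3. In PNPT1 knockdown replicates 1, 2 and 3 it made up 90.1% (80.7 to 95.9), 67.7% (58.9 to 75.6) and 91.2% (76.3 to 98.1). The groups overlap, since SUPV3L1 knockdown replicate 3 exceeded PNPT1 knockdown replicate 2. The libraries with the most OAS RNA were themselves unlike. SUPV3L1 knockdown replicate 1 had 1.65 OAS2 counts for each OAS3 count, and SUPV3L1 knockdown replicate 3 had 11.2. These intervals cover counting error only.

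**Figure D3:**
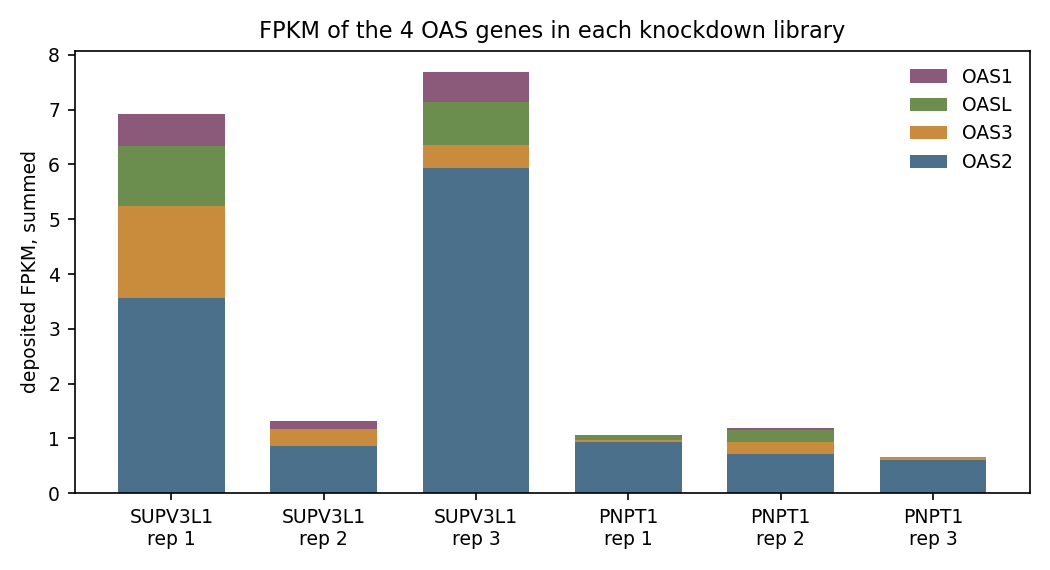
Deposited FPKM of OAS2, OAS3, OASL and OAS1 stacked for each library (bars start at 0, SUPV3L1 knockdown at the left). The sum is 6.91 and 7.69 FPKM in SUPV3L1 knockdown replicates 1 and 3, and 0.651 to 1.32 FPKM in the other libraries, and OAS2 is the largest part of each bar. FPKM summed over all genes was 1.47e+06 to 1.59e+06 in SUPV3L1 knockdown libraries and 1.74e+06 to 2.97e+06 in PNPT1 knockdown libraries. Bars of different libraries are thus not on quite the same scale.

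A list of 4 genes that act on 2-5A or on related nucleotides, or that modulate its pathway, had log2 fold changes between -0.83 and 0.48. ABCE1, a ribosome recycling factor, was at 68.4 ± 1.97 CPM after SUPV3L1 knockdown and 58.4 ± 10.4 CPM after PNPT1 knockdown (SD, n = 3). The groups did not overlap, but SUPV3L1 knockdown replicate 3 (66.3 CPM) and PNPT1 knockdown replicate 3 (65.0 CPM) were close. Non-overlap with SUPV3L1 knockdown above held for 4.62% of the genes tested. PDE12, a mitochondrial phosphodiesterase that degrades 2-5A, was at 28.1 ± 6.96 CPM after SUPV3L1 knockdown and 20.7 ± 9.76 CPM after PNPT1 knockdown (SD, n = 3). AKAP7, which has a phosphodiesterase domain that can cleave 2-5A, was the 1 gene of this list on the lower side, at 1.71 ± 0.284 CPM after SUPV3L1 knockdown and 3.07 ± 0.267 CPM after PNPT1 knockdown without overlap (SD, n = 3), a log2 fold change of -0.83 ± 0.53 (SE). Non-overlap on that side held for 3.94% of the genes tested. CNP, an enzyme that cleaves 2′,3′-cyclic nucleotides, was at 41.2 ± 14.5 CPM after SUPV3L1 knockdown and 29.6 ± 3.68 CPM after PNPT1 knockdown (SD, n = 3). None of the 4 genes passed edgeR's test (smallest Benjamini-Hochberg adjusted p = 0.898), and their median log2 fold change was 0.33, against 0.00938 over all genes tested.

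The route that induces OAS genes runs from the interferon receptor through JAK kinases to ISGF3. Of 11 such genes, 10 were tested, 5 had a positive log2 fold change and 5 a negative one, the median was 0.17, and none passed edgeR's test. IRF7, an interferon-inducible transcription factor, had the smallest p and was at 5.76, 3.58 and 5.52 CPM in SUPV3L1 knockdown replicates 1, 2 and 3 against 1.79, 2.71 and 2.30 CPM in PNPT1 knockdown replicates 1, 2 and 3, a log2 fold change of 1.12 ± 0.52 (SE; edgeR, Benjamini-Hochberg adjusted p = 0.898). The groups did not overlap for IRF7, USP18 and the receptor gene IFNAR1, with SUPV3L1 knockdown above, as for 4.62% of all genes tested. USP18, which removes ISG15 from proteins and restrains the receptor, was at 2.06 ± 0.328 CPM after SUPV3L1 knockdown and 1.06 ± 0.0362 CPM after PNPT1 knockdown. IRF1, a transcription factor induced mainly by interferon gamma, was at 9.57 ± 5.90 CPM after SUPV3L1 knockdown and 17.7 ± 9.36 CPM after PNPT1 knockdown (SD, n = 3). Of 7 interferon genes, IFNB1, IFNA1, IFNA2, IFNL1, IFNL3 and IFNG had no counts in any library, and IFNL2 had 1 count, in PNPT1 knockdown replicate 3.

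The list of other sensors of double-stranded RNA and their adaptors holds 12 symbols, of which 11 are in the files. Of these, 9 genes were tested, and 6 lay on the side of SUPV3L1 knockdown. Their median log2 fold change was 0.19 and the range -0.31 to 0.68. EIF2AK2, the kinase PKR, which halts translation when it binds double-stranded RNA, was at 59.2 ± 16.8 CPM after SUPV3L1 knockdown and 36.8 ± 17.4 CPM after PNPT1 knockdown. ADAR, which edits adenosine to inosine in double-stranded RNA, was at 221, 164 and 200 CPM in SUPV3L1 knockdown replicates 1, 2 and 3 and at 146, 148 and 170 CPM in PNPT1 knockdown replicates 1, 2 and 3. ZCCHC3, a cofactor of nucleic acid sensors, was at 18.1 ± 5.11 CPM after SUPV3L1 knockdown and 11.8 ± 8.11 CPM after PNPT1 knockdown (SD, n = 3). None passed edgeR's test, and the summed level of the list was 496, 455 and 486 CPM in SUPV3L1 knockdown replicates 1, 2 and 3 and 442, 448 and 357 CPM in PNPT1 knockdown replicates 1, 2 and 3.

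Other interferon-stimulated genes mostly had the higher level after SUPV3L1 knockdown. Of 30 genes 24 were tested, 22 of them had a log2 fold change above 0 (50.7% of all genes tested did) and their median was 0.61, while none passed edgeR's test. The smallest p belonged to IFI6, a membrane protein induced by interferon, with 41.5, 8.77 and 217 CPM in SUPV3L1 knockdown replicates 1, 2 and 3 and 13.3, 8.38 and 18.7 CPM in PNPT1 knockdown replicates 1, 2 and 3. As with OAS2, SUPV3L1 knockdown replicates 1 and 3 were the highest libraries and replicate 2 lay among the PNPT1 knockdown libraries. Its log2 fold change was 2.74 ± 0.90 (SE; edgeR, Benjamini-Hochberg adjusted p = 0.898), and leaving out SUPV3L1 knockdown replicate 3 made it 0.92. With no expression filter its SE was 0.41 and edgeR called it (Benjamini-Hochberg adjusted p = 2.42e-08, with a range of 2.42e-08 to 0.999 over the alternatives). IFI44L, an interferon-induced protein of unsettled function, was at 5.55 ± 3.33 CPM after SUPV3L1 knockdown and 1.51 ± 0.961 CPM after PNPT1 knockdown, and IFIT5, which binds RNA ends, at 3.23 ± 1.16 and 0.974 ± 0.666 CPM in the same order of groups (SD, n = 3). The summed level of the list was 618, 318 and 763 CPM in SUPV3L1 knockdown replicates 1, 2 and 3, against 453, 337 and 243 CPM in PNPT1 knockdown replicates 1, 2 and 3. At least 1 of the motifs printed in capitals in the OAS1 and OAS3 promoters was found for 24 of the 27 listed genes in the promoter table, against 6.74% of 27305 gene symbols.

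**Figure D4:**
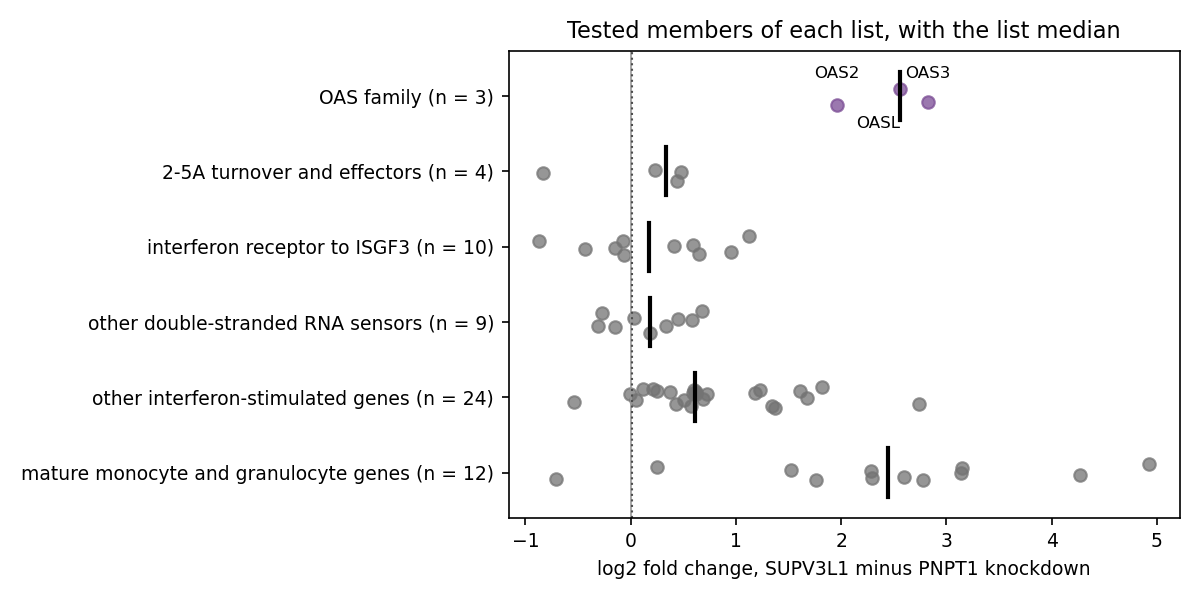
Log2 fold change, SUPV3L1 minus PNPT1 knockdown (x axis), of the tested genes of each list (points, spread vertically for legibility), with the list median (black bar) and the median of all genes tested (dotted line, 0.00938). The 3 tested OAS genes lie between 1.96 and 2.82, the 9 other double-stranded RNA sensors between -0.31 and 0.68, and no gene shown passed edgeR's test after adjustment.

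The summed level of mature monocyte and granulocyte markers was also highest in SUPV3L1 knockdown replicates 1 and 3, though not every marker followed this order. The sum was 3763, 531 and 1894 CPM in SUPV3L1 knockdown replicates 1, 2 and 3, against 342, 381 and 360 CPM in PNPT1 knockdown replicates 1, 2 and 3. Most of the sum in SUPV3L1 knockdown replicates 1 and 3 came from LYZ, S100A8 and S100A9. There S100A8 was at 848 and 127 CPM and S100A9 at 921 and 278 CPM. In SUPV3L1 knockdown replicate 2 S100A8 was at 21.1 CPM and S100A9 at 55.7 CPM. After PNPT1 knockdown S100A8 was at 25.4 to 48.4 CPM and S100A9 at 51.4 to 94.9 CPM. Of the 15 markers 12 were tested, 11 had a log2 fold change above 0, and the median was 2.45. The groups did not overlap for 4 of the 12 with SUPV3L1 knockdown above and for 1 with it below. Over all genes tested these shares were 4.62% and 3.94%. LYZ, the gene of lysozyme, was at 1493, 344 and 1331 CPM in SUPV3L1 knockdown replicates 1, 2 and 3 and at 36.6, 180 and 144 CPM in PNPT1 knockdown replicates 1, 2 and 3. CD14, a monocyte receptor, was at 67.6, 0.754 and 1.73 CPM in SUPV3L1 knockdown replicates 1, 2 and 3 and at 0.398, 0.437 and 0.768 CPM in PNPT1 knockdown replicates 1, 2 and 3, so it stood out in SUPV3L1 knockdown replicate 1 but not in replicate 3. CTSS, the protease cathepsin S, was lower without overlap, at 33.9, 27.4 and 40.2 CPM in SUPV3L1 knockdown replicates 1, 2 and 3 and at 67.0, 50.5 and 48.6 CPM in PNPT1 knockdown replicates 1, 2 and 3. The markers named here were chosen after their values were seen. The part of these markers in the OAS levels was not tested.

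**Figure D5:**
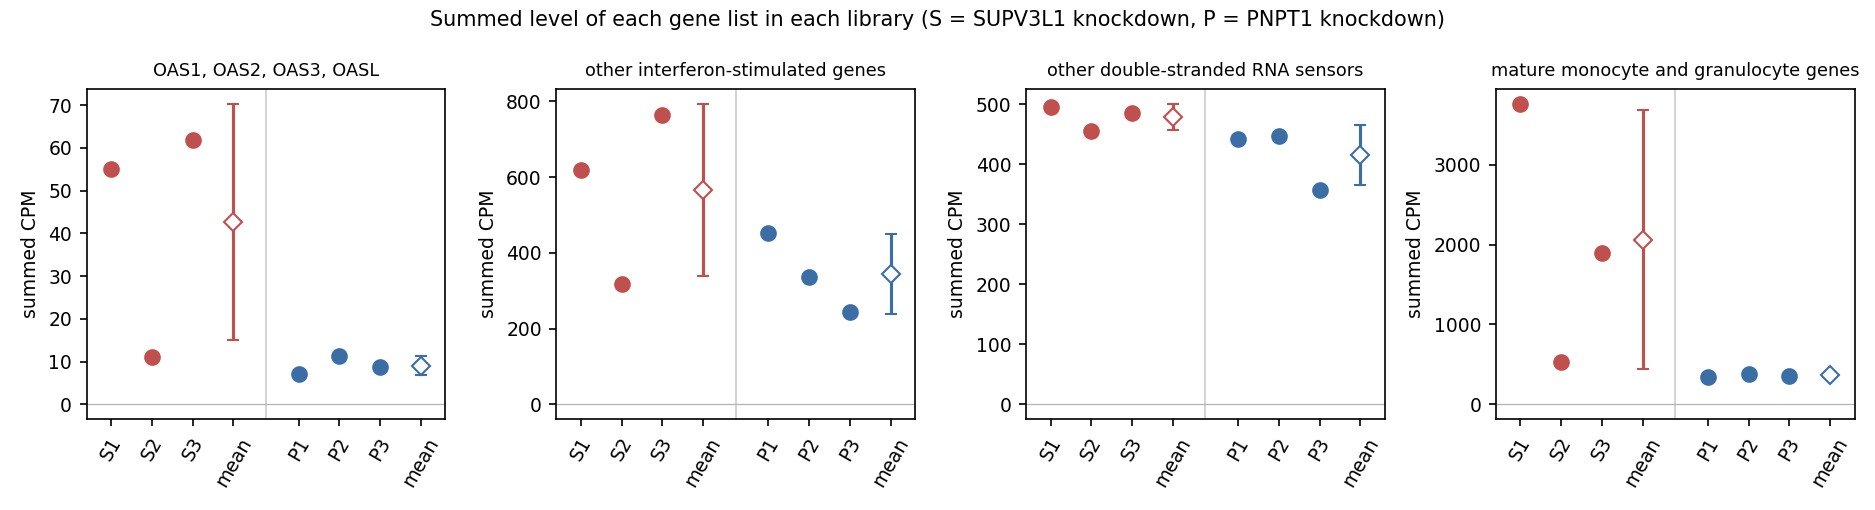
Summed CPM (y axis, linear, each panel with its own scale) of the 4 OAS genes and of 3 gene lists in each library (points, S for SUPV3L1 knockdown, P for PNPT1 knockdown), with the mean ± SD of each group (open diamonds, n = 3). S1 and S3 are highest for the OAS genes (55.0 and 61.9 CPM), the other interferon-stimulated genes (618 and 763 CPM) and the mature myeloid genes (3763 and 1894 CPM), while the other sensors span 357 to 496 CPM.

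The genes whose levels ran most alike with each member were taken from tested genes with a mean of 5 CPM or more, by Pearson's r of log2 CPM over the 6 libraries. For OAS2 they were EPHX1, an epoxide hydrolase (r = 0.962), FAM114A2 (r = 0.959) and SERPINB10, a serpin of blood-forming cells (r = 0.958). For OAS3 they were PELO, a ribosome rescue factor (r = 0.990), FOSL2, a subunit of the transcription factor AP-1 (r = 0.988), and TOR1A, an ATPase of the endoplasmic reticulum (r = 0.985). For OASL they were NQO2, a quinone reductase (r = 0.976), THBS1, a secreted matrix glycoprotein (r = 0.970), and NABP1, a single-stranded nucleic acid binding protein (r = 0.970). None of these is on the interferon or sensor lists. Genes of those lists with a mean under 5 CPM, such as IRF7, USP18 and IFIT5, could not appear, nor could OAS3 or OASL. Their absence is therefore set by the cutoff and is not a result. Between the members themselves r was 0.856 for OAS2 and OASL, 0.762 for OAS3 and OASL and 0.701 for OAS2 and OAS3. The 6 points fall into 2 groups and each library lends its depth to all its genes, so these values are given as a description with no test.

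Few genes beside the OAS cluster had enough counts to test. Within 250 kb of the OAS1, OAS3 and OAS2 cluster, 3 of 17 other annotated genes were tested, and their log2 fold changes lay between -0.25 and 0.51. On the sides of the cluster, RPH3A had 1 count over the 6 libraries, and IMMP1LP2 had none. The antisense gene RP1-71H24.1 (ENSG00000257452, chr12:112907628-113017751, minus strand) spans most of the cluster and had 0 counts in the 6 libraries. Its exons share 92 bases with OAS1 exons and none with those of OAS2 or OAS3. Whether counting used strand is not stated in the labels or headers, so OAS1 reads in those 92 bases may not all have been assigned.

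The OAS transcripts were also searched for the potential to fold on themselves, because J2 selects double-stranded RNA. The longest GENCODE 29 transcript of OAS1 (2416 bases), OAS2 (4734), OAS3 (6719) and OASL (3266) holds no stretch of 20 bases whose reverse complement occurs in the same transcript. Such a stretch was found in 9.19% of 10951 protein-coding genes tested. The search covers spliced transcripts and perfect matches, not introns or pairing between different RNAs. The GC content of the OAS transcripts ran from 47.0% for OAS2 to 54.3% for OAS3, beside a median of 47.8% over the same 10951 genes.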

How the data were processed

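RNA precipitated with the J2 antibody from OCI-AML2 cells was made into directional libraries and sequenced (per the labels). The deposited count tables hold whole-number counts of reads per gene for 60675 identifiers, followed by 5 summary lines that stayed out of library sizes and tests. The deposited FPKM table covers the same genes. The submitters' processing notes name GRCh38, HTSeq, StringTie 2.1.4, SAMtools 1.14 and HISAT2 2.2.1. The maker of the FPKM values, the annotation release and the strand setting were not given in the sources used here. Alignments that were not unique, 65.7% to 80.1% of entries, gave no counts, and genes received 7.06% to 16.0% of entries. Columns were matched to libraries by title, and replicates were numbered in accession order.

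Counts were tested with edgeR 4.0.16 (R 4.3.3, quasi-likelihood test, TMM scaling, default filter with a minimum count of 10 and total of 15, 13275 genes kept), SUPV3L1 minus PNPT1 knockdown, Benjamini-Hochberg adjusted over all genes with a threshold of 0.05. SE are the fold change divided by the square root of F. Alternatives used DESeq2 1.42.0, limma 3.58.1 on log2(FPKM + 0.1) and log2(FPKM + 1), other library sizes, other filters and each library left out. The code was checked on simulated counts. Sequences are from RefSeq and positions from GENCODE 29.

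The members and lists were chosen with earlier results of these data known. Named genes are the members, the targeted genes, each reported gene of the 2-5A list, the 3 smallest p of the interferon receptor, sensor and other interferon-stimulated lists, each interferon gene, the 3 genes most alike to each member and genes beside the OAS1, OAS3 and OAS2 cluster, and any other gene was named after its values were seen. P-values weigh the difference between the groups against the spread between these libraries, which is estimated partly from all genes together. Some genes of the lists and loci are not reported here.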

Additional observations from a re-analysis of the deposited data

How the results depend on the processing

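No paired analysis was possible because the labels give the groups no shared replicate numbers. Under 14 other settings every log2 fold change of OAS1, OAS2, OAS3 and OASL that could be computed stayed above 0 (52 of 52). OAS1 was fitted with no expression filter, and with 10 counts or more in each library OAS2 was the 1 member left. The number of genes past the threshold, 0 in the first place, was 18 with DESeq2 and 187 with no expression filter, and 0 to 1 with each library left out (1 without SUPV3L1 knockdown replicate 2). With no expression filter OAS2 (1.97) and OAS3 (2.85) passed the threshold, with smaller SE (0.44 and 0.66) than in the first place (0.59 and 0.87). The call of OAS1 was lost with DESeq2 (3.98, adjusted p = 0.0956) and with limma on log2(FPKM + 0.1) (2.14) or log2(FPKM + 1) (0.48), and its values with each library left out ran from 3.58 to 5.13. The pseudocount of 1 lies above most OAS FPKM, so it shrinks these fold changes by construction.

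The median log2 fold change of the interferon receptor list was -0.039 with no expression filter, -0.038 with 10 counts or more in each library, 0.32 on log2(FPKM + 0.1) and 0.086 to 0.40 with each library left out. That of the other sensors was -0.16 to 0.31 with each library left out. The median over all genes was 0.17 on log2(FPKM + 0.1) and 0.11 with no expression filter, against 0.0094 in the first place, so differences there are relative to these shifts. The causes were not tested. At this depth OAS1 and OASL rest on few counts in PNPT1 knockdown.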
